A study of Mus musculus with 12 samples.

Results

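The comparison asks what soluble CD74 (sCD74) adds to macrophage migration inhibitory factor (MIF) when mouse cardiac myofibroblasts meet both proteins at once. It sets 3 microarrays of cultures given 8 nM MIF together with 40 nM sCD74 (the co-treated group) against 3 arrays of cultures given 8 nM MIF alone, 6 of the 12 arrays of the series. The other 6 arrays, 3 with carrier and 3 with 40 nM sCD74 alone, show what sCD74 did without MIF. All 4 groups held wildtype C57BL/6J cells: fibroblasts of hearts aged 1 to 7 days after birth were grown for 10 to 14 days, by when they had become myofibroblasts, and were exposed for 8 h. Co-treated and MIF arrays were paired by replicate number (1 to 3), which stands for a code that the titles give to the 4 arrays of a number. The labels do not say whether a number is a separate isolation or how many hearts were pooled, and p-values cover no more than the spread among these arrays. Levels and differences are log2 values as deposited, where a difference of 1 would be a doubling if the scale is a plain log2.

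MIF is an inflammatory cytokine. It binds the cell-surface form of CD74, which signals with CD44, and the chemokine receptors CXCR2 and CXCR4, and such signalling can reach the MAP kinase and NF-kappaB pathways. CD74 is also the invariant chain that accompanies MHC class II molecules, and its ectodomain can be shed from the cell surface as sCD74, which binds MIF in solution. Cardiac myofibroblasts lay down collagen and carry smooth muscle alpha-actin, and they can respond to cytokines with chemokines and with interferon-stimulated genes, which encode antiviral proteins. The level of Cd74 itself was not analysed here.

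The probe sets that are no controls numbered 22206, and array medians over them lay between 8.10 and 8.14. The median of the negative controls was 7.39 to 7.48 on the 6 MIF and co-treated arrays, but 7.69 and 7.70 on carrier replicates 1 and 3 and 7.90 on sCD74 replicate 3. The main counts and some of the values that rest on these 3 arrays are therefore also given with 1 of them left out. Other values that use carrier or sCD74 arrays are given with all arrays only. Arrays within the MIF or the co-treated group correlated with r between 0.990 and 0.995. The mean of the negative control medians, 7.53, was taken as the level of background, and a gene whose mean lay below it in a compared group is given by its levels, with no size for the difference unless it is named as a fitted value. The cultures carried fibroblast genes at high level, with a mean over 11 fibroblast markers of 14.70 to 14.95 on the MIF arrays and 14.66 to 14.86 on the co-treated arrays. They also carried macrophage genes. The mean over 18 macrophage markers was 11.72, 12.56 and 12.43 on MIF replicates 1, 2 and 3, and 11.75, 12.89 and 12.32 on the co-treated replicates. For any gene that macrophages also express, fewer cells of a type and less RNA per cell cannot be told apart in these bulk samples.

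No gene passed the test when sCD74 was added to MIF. limma called 0 of 22206 probe sets (0%) at an adjusted p under 0.05, and the smallest adjusted p was 0.896. At an unadjusted p under 0.05 there were 403 probe sets higher (1.81%) and 571 lower (2.57%) with co-treatment, 974 in all (4.39%), where 1110.3 would stand at 5%. Leaving out the MIF array of replicate 3 brought the count higher to 705, and leaving out replicate 3 from all groups brought it to 613. The count lower became 1030 without replicate 3 and 984 without the co-treated array of replicate 3. Without the replicate block the counts were 191 higher and 340 lower. The median standard error of a difference was 0.14, and differences of 0.51 ± 0.11 (Il17rc) and 0.98 ± 0.28 (Clec4e) did not pass, so differences well above that error could be missed with 3 arrays a group. The statements on genes that follow are descriptions of these arrays, since none of the differences passed the adjusted test.

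The 3 pairs of arrays differed from each other in what co-treatment did across the transcriptome. The SD of the pair differences over all probe sets was 0.31 in pair 1, 0.27 in pair 2 and 0.27 in pair 3. Across probe sets, which are no independent replicates, the differences of pairs 1 and 2 correlated with r = 0.177, those of pairs 1 and 3 with r = -0.0927 and those of pairs 2 and 3 with r = -0.110. All 3 pair differences lay above 0 for 2687 probe sets (12.1%) and below 0 for 2774 (12.5%). The 3 co-treated values all lay above the 3 MIF values for 719 probe sets (3.24%) and all below them for 863 (3.89%).

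**Figure D1:**
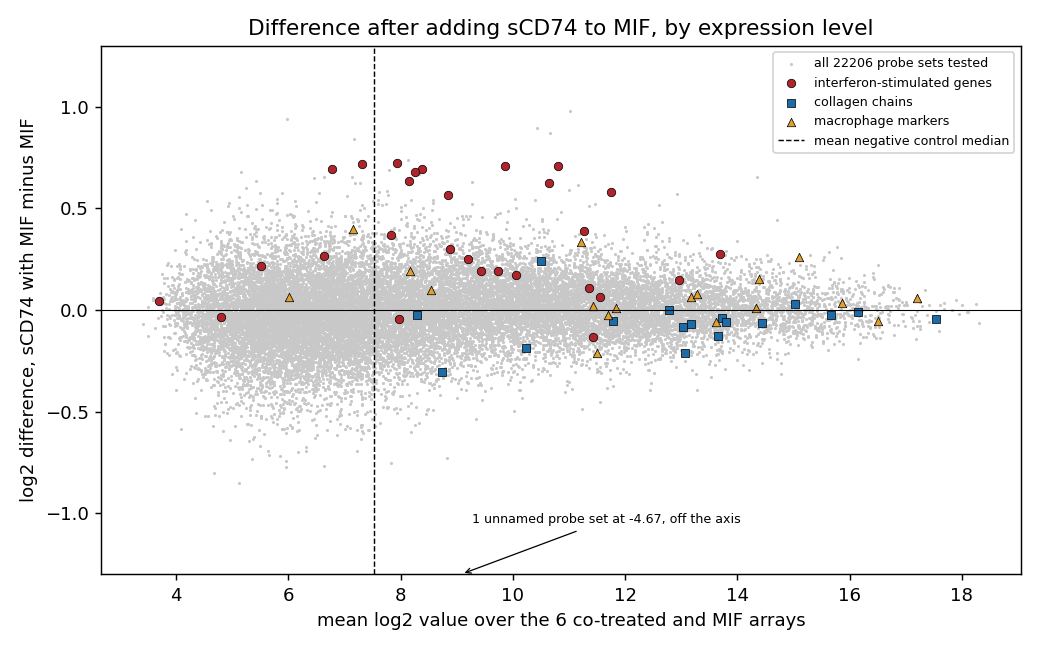
Log2 difference (sCD74 with MIF minus MIF, vertical axis) against the mean log2 value over the 6 arrays (horizontal axis) for all 22206 probe sets, with the members of 3 gene lists in colour and the background level as a dashed line. The interferon-stimulated genes lie mostly above 0 and the collagen chains slightly below it, and 1 unnamed probe set at -4.67 lies off the axis.

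The direction of the low p-values went with the level of expression. Among the 9630 probe sets with a mean below the background level, 424 had an unadjusted p under 0.05 and a lower value with co-treatment, against 179 with a higher one. From the background level to 9 on the log2 scale there were 91 higher and 82 lower of 3439 probe sets. Between 9 and 10 the counts were 56 higher and 21 lower of 1939 probe sets. From 10 to 12 they were 54 higher and 35 lower of 3698, and above 12 they were 23 higher and 9 lower of 3500. Most of the probe sets on the lower side were thus ones that the arrays hardly detected, and so were 179 of the 403 on the higher side.

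Interferon-stimulated genes formed the list with the highest median. Of 28 measured members, 25 lay higher with co-treatment than with MIF alone, where 48.6% of all probe sets did, and the median difference was 0.29 against -0.01 over all probe sets. For 11 of the 28 the difference was above 0 in all 3 pairs (12.1% of all probe sets), and for 0 it was below 0 in all 3. An unadjusted p under 0.05 was reached by 9 members, all higher (1.81% of all probe sets), and 0 passed after adjustment. In 2 members, Isg20 and Oas1a, the groups did not overlap (3.24% of all probe sets). The difference came mainly from pairs 1 and 2: the list's median was 0.28 in pair 1, 0.67 in pair 2 and 0.02 in pair 3.

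The stretches before the start sites of 4 genes are shown because they carry a pattern that is common before interferon-induced genes. Interferon regulatory factors are known to bind repeats of GAAA spaced by a pair of bases, so the pattern GAAANNGAAA (N any base), or TTTCNNTTTC on the other strand, was searched in the 250 bases before each start site of the RefSeq genes of GRCm38.p6. It stood before 936 of 27025 genes (3.46%). Of the interferon-stimulated genes with a sequence, 8 of 22 held it, and of the interferon-inducible GTPases 9 of 9. In 170 bases that end at the start site, read 5′ to 3′ along the gene's strand, capitals mark the matches of 4 genes whose values follow.
Isg15, chr4:156200819-156200988, minus strand: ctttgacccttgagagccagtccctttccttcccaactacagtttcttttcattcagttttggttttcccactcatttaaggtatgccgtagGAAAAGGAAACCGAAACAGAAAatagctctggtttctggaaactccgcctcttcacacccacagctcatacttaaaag
Oas1a, chr5:120907526-120907695, minus strand: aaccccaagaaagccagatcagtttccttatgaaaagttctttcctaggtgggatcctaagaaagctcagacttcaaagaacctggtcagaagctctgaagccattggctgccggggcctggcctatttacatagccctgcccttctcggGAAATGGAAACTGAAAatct
Ifit3, chr19:34583359-34583528, plus strand: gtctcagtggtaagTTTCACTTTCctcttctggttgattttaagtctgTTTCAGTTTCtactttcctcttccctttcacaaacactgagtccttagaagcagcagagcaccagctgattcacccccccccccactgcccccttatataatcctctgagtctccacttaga
Gbp2, chr3:142620493-142620662, plus strand: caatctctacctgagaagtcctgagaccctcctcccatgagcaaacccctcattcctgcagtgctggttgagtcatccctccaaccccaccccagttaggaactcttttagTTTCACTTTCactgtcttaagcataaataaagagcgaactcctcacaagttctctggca

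The Isg15 stretch holds 3 overlapping matches whose first bases lie 78, 72 and 66 bases before the start. Oas1a holds 2 that overlap, 20 and 14 bases before it, Ifit3 holds 2 apart from each other, at 156 and 122, and Gbp2 holds 1 at 59. The 8 interferon-stimulated genes with a match had a median difference of 0.61 (range -0.03 to 0.73), and the 13 measured ones with a sequence but no match had 0.25 (range -0.13 to 0.72). These 2 ranges overlap over most of their length. They are of fitted values and take in genes below background, such as Oas1a with a match and Irf7, the highest without one. The 7 measured interferon-inducible GTPases with a sequence, all with a match, had a median of 0.26 (range 0.08 to 0.59). That is close to the median of the interferon-stimulated genes without a match, and Gbp2 is the highest of the 7. A match is a description of the letters, and binding was not measured.

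Isg15 encodes a ubiquitin-like modifier. Its level with MIF was 6.98, 8.38 and 8.76 in replicates 1, 2 and 3, and with MIF and sCD74 it was 7.97, 9.12 and 9.10. Co-treatment was the higher in each pair, by 1.00, 0.75 and 0.34, while the groups overlapped because replicate 1 lay low in both. The MIF array of replicate 1 was below the background level, so the 1.00 is no measured size. The fitted difference was 0.69 ± 0.23 (SE), with an unadjusted p of 0.0106 and an adjusted p of 0.998 in limma.

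Xaf1, which encodes a partner of the apoptosis inhibitor XIAP, gave 8.71, 9.79 and 10.01 with MIF and 9.61, 10.60 and 10.43 with both proteins. It had the same layout, replicate 1 low in both groups and each pair higher with co-treatment, and a difference of 0.71 ± 0.20 (unadjusted p 0.00339, adjusted 0.998 in limma). Isg20, an RNA exonuclease, gave 10.52, 9.93 and 10.54 with MIF and 11.16, 10.67 and 11.04 with both. Here each co-treated array lay above each MIF array, and the 3 pair differences were close to each other at 0.63, 0.74 and 0.50.

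Pair 2 carried most of the difference in several other members. Oasl2, a relative of the 2′-5′ oligoadenylate synthetases, gave 9.87, 10.35 and 11.14 with MIF and 10.39, 11.86 and 11.24 with both, which is 1.52 in pair 2 and 0.10 in pair 3. Ifit3, which encodes an antiviral protein with tetratricopeptide repeats, gave 10.27, 12.13 and 12.00 with MIF and 10.34, 13.46 and 12.35 with both. Its pair differences were 0.07, 1.32 and 0.35. Usp18, the protease that removes ISG15 from proteins, gave pair differences of 0.02, 1.29 and 0.39, and Rsad2 (viperin) gave 0.58, 2.13 and -0.53. In pair 3 Rsad2 therefore lay lower with co-treatment.

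Usp18 and Rsad2 did not reach an unadjusted p under 0.05, whereas Isg15, Xaf1, Isg20, Oasl2 and Ifit3 did, as did Rtp4, Herc6, Irf7 and Oas1a. Rtp4, a receptor transporter protein, differed by 0.68 ± 0.27, with pair differences of 1.08, 1.11 and -0.15. Herc6, a mouse ligase for ISG15, differed by 0.39 ± 0.16, higher in each pair. Irf7, the transcription factor that amplifies the interferon response, lay below the background level with MIF (6.13, 7.00 and 7.75) and at 6.63, 8.88 and 7.53 with both. Oas1a, an oligoadenylate synthetase, was 1 of 5 members below it in both groups (5.81, 6.76 and 6.73 with MIF, 6.78, 7.44 and 7.18 with both). Irf1 and Zbp1 were not higher, with differences of -0.13 ± 0.18 and -0.04 ± 0.17.

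The count for the list depended on single arrays. Without replicate 2 in all groups, 4 members reached an unadjusted p under 0.05. The count was 4 without the co-treated array of replicate 2, 3 without the MIF array of replicate 2 and 5 without the MIF array of replicate 1. Without the replicate block it was 2. Members above 0 numbered 21 to 26 in every one of the 16 alternative settings, and the list's median lay between 0.18 without replicate 2 and 0.49 without replicate 3. The 21 with dim probe sets left out is a count over fewer members, since the 5 below background in both groups drop out. The median of the macrophage markers was also highest in pair 2. Of the 18 markers, 18 lay higher in pair 2, 8 in pair 1 and 5 in pair 3. Their median difference was -0.02 in pair 1, 0.26 in pair 2 and -0.13 in pair 3, against 0.28, 0.67 and 0.02 for the interferon-stimulated genes. The part of the macrophage markers in the result was not tested. Phf11d, which was picked after its values were seen, gave 10.07, 10.82 and 10.97 with MIF and 10.67, 11.59 and 11.06 with both, a difference of 0.49 ± 0.15.

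**Figure D2:**
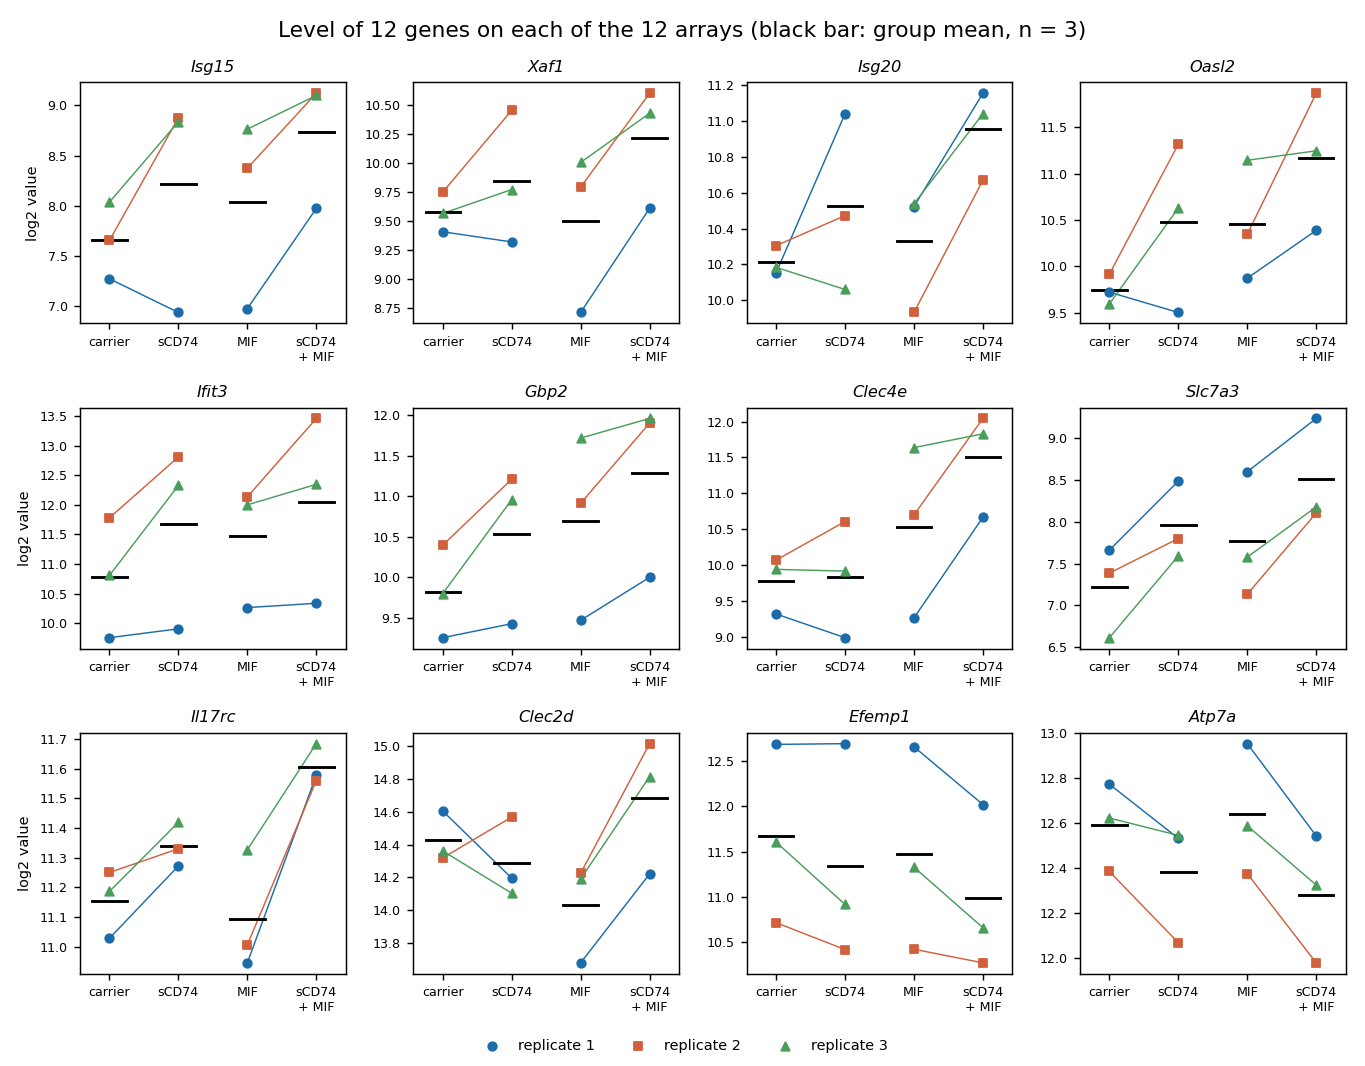
Log2 level (vertical axis, its range set per gene) of 12 genes on each of the 12 arrays, with lines that join arrays of a replicate number between carrier and sCD74 and between MIF and sCD74 with MIF, and a black bar for each group mean (n = 3). Isg15, Xaf1 and Clec4e lie higher with co-treatment in each pair while replicate 1 lies low in both groups, and Efemp1 and Atp7a lie lower in each pair.

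The interferon-inducible GTPases, which act on the vacuoles of intracellular pathogens, split between pairs. Of 11 measured members, 8 lay higher, with a median of 0.10 that came from 0.24 in pair 1, 0.74 in pair 2 and -0.49 in pair 3. In pair 3, 1 of the 11 lay higher, namely Gbp2. Its level was 9.46, 10.91 and 11.72 with MIF and 10.00, 11.90 and 11.96 with both, a difference of 0.59 ± 0.26, the 1 member with an unadjusted p under 0.05. Gbp4 is an example of the split, with 8.21, 8.95 and 10.47 under MIF and 8.48, 9.73 and 9.48 under both. Its MIF array of replicate 3 was the highest of the 6. The list's median turned to -0.09 without replicate 2, to -0.04 without the co-treated array of replicate 2 and to -0.02 without the MIF array of replicate 2.

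The antigen presentation genes stayed near the level of MIF alone, with 10 of 17 higher and a median of 0.04. H2-Q4, a class I-related molecule, gave 8.81, 9.32 and 10.31 with MIF and 9.25, 10.03 and 10.59 with both, a difference of 0.48 ± 0.20. H2-Ab1, a chain of the class II molecule that CD74 escorts, differed by -0.25 ± 0.14.

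Clec4e had the largest difference of any named gene that was above background in both groups. It encodes Mincle, a receptor of myeloid cells for glycolipids of mycobacteria and fungi and for a signal of dying cells. Its level was 9.26, 10.70 and 11.64 with MIF and 10.66, 12.04 and 11.83 with both, so that co-treatment was higher by 1.40, 1.35 and 0.19. The difference was 0.98 ± 0.28 (unadjusted p 0.00408, adjusted 0.998 in limma). Without MIF, sCD74 differed from carrier by 0.06 ± 0.28. That value was 0.33 without carrier replicate 1, 0.29 without sCD74 replicate 3 and -0.11 without carrier replicate 3. The difference with MIF minus that without it was 0.92, which did not pass after adjustment. It ran from 0.65 to 1.09 with 1 of these arrays left out.

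For 3 further genes known from inflamed macrophages, of which Marco and Saa3 were picked after their values were seen, the levels were as follows. Acod1, the enzyme that makes itaconate, lay at 5.52, 6.99 and 7.76 with MIF, a mean below background, and at 6.87, 7.95 and 7.98 with both. Marco, a scavenger receptor, gave 10.79, 10.45 and 11.33 with MIF and 11.76, 11.14 and 11.51 with both (0.62 ± 0.22), and Saa3, an acute-phase protein, differed by 0.87 ± 0.44.

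The identity markers of macrophages are set beside them. Of these 18 markers 14 lay higher, 2 of them in all 3 pairs (12.1% of all probe sets), with a median of 0.06 and 0 at an unadjusted p under 0.05. The median was -0.03 without replicate 2 and -0.02 without the MIF array of replicate 2. Fcgr1, the high-affinity Fc receptor, had the smallest p among those above background (0.33 ± 0.16), and its pair differences were 0.15, 0.79 and 0.06. Aif1 differed by 0.01 ± 0.15 and Tyrobp by 0.08 ± 0.14.

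Clec2d, a lectin-like ligand for the inhibitory receptor NKR-P1B on natural killer cells, gave 13.68, 14.22 and 14.19 with MIF and 14.22, 15.02 and 14.82 with both. The pair differences were 0.54, 0.79 and 0.62, and the difference was 0.65 ± 0.19. Carrier arrays stood at 14.61, 14.32 and 14.36, so that the MIF arrays had the lowest mean of these 3 groups.

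Chemokines depended on replicate 1. Of 22 measured members 15 lay higher, with a median of 0.18 made of 0.36, 0.13 and -0.14 in pairs 1, 2 and 3. Ccl2, the main attractant of monocytes, gave 13.00, 15.00 and 15.43 with MIF and 14.72, 14.78 and 15.26 with both. The co-treated array of replicate 1 was thus 1.73 above its MIF partner, and the other pairs differed by -0.22 and -0.17. Ccl7, another monocyte attractant, had the same form, with 1.29, 0.01 and -0.09. Without replicate 1 the median of the list was -0.03, and without the MIF array of replicate 1 it was -0.01.

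A B cell attractant, Cxcl13, was higher in each pair. It gave 8.79, 8.65 and 9.24 with MIF and 9.46, 8.94 and 9.63 with both, a difference of 0.45 ± 0.18, and 2 of the 22 members, Cxcl13 and Ccl19, had an unadjusted p under 0.05 on the higher side (1.81% of all probe sets). Ccl19 lay below background on all 6 arrays. Cxcl10, a target of interferons, gave pair differences of 0.60, 1.03 and -0.86, and Cxcl9 had its 1 high value, 9.77, on the MIF array of replicate 3.

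Cytokines and the NF-kappaB feedback genes showed little beyond MIF alone. Cytokines and growth factors lay higher in 10 of 21 members (median -0.03), and Il1b gave pair differences of 0.44, -0.41 and -1.22. NF-kappaB subunits and feedback regulators were above MIF alone in 16 of 19 members (median 0.06), with 0 at an unadjusted p under 0.05. The pairs gave medians of 0.18, 0.06 and -0.09, and 6 of the 19 lay higher in pair 3. The median was -0.04 without the MIF array of replicate 1 and 0.19 without that of replicate 3. Birc3, an inhibitor of apoptosis and a target of NF-kappaB, gave 12.41, 13.23 and 13.23 with MIF and 12.68, 13.06 and 13.21 with both. Its difference was 0.02 ± 0.14, beside 0.81 for MIF against carrier, a contrast that shares the MIF arrays.

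MIF itself and its receptors did not separate the groups. Mif gave 10.66, 10.84 and 11.20 with MIF and 11.23, 10.85 and 10.72 with both, and the difference was 0.04 ± 0.19. Its homologue Ddt differed by -0.03 ± 0.17, Cd44 by -0.02 ± 0.14 and Cxcr2 by -0.09 ± 0.25. Cxcr4 gave 11.55, 9.92 and 10.35 with MIF and 11.05, 9.91 and 9.93 with both (-0.31 ± 0.19), lower in each pair but by 0.01 in pair 2, and its ligand Cxcl12 differed by -0.10 ± 0.11. Of the list's 8 members 3 lay higher, with a median of -0.03.

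The necroptosis and death receptor genes, which act where cells die by a regulated, inflammatory route, had a median of 0.02 with 12 of 19 higher. Ripk3, the kinase of that route, gave 9.14, 8.89 and 8.86 with MIF and 9.07, 8.89 and 8.94 with both, a difference of 0.00 ± 0.14. Its substrate Mlkl differed by 0.08 ± 0.13 and Casp8, the protease that restrains it, by 0.09 ± 0.11. Fadd, an adaptor of death receptors, differed by 0.34 ± 0.15, from 0.72 in pair 1, -0.02 in pair 2 and 0.34 in pair 3. The BCL2 family had a median of -0.05 with 7 of 15 higher.

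The matrix genes lay a little lower with co-treatment in the fitted values. Of 17 collagen chains 15 lay lower, with a median of -0.05, but the chains did not move as one in each pair: 5, 14 and 6 of them lay higher in pairs 1, 2 and 3. The list's median ran from -0.11 without replicate 2 to -0.02 without replicate 1. Col1a1, the main chain of type I collagen, gave 16.37, 15.97 and 16.13 with MIF and 16.38, 16.05 and 16.01 with both. The difference was -0.01 ± 0.12. Col15a1, a basement membrane collagen, was the 1 chain lower in all 3 pairs (-0.31 ± 0.18). Col8a1, 1 of the 2 chains on the higher side, differed by 0.24.

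Other matrix genes are given next. Of 26 matrix and cross-linking genes 18 lay lower (median -0.06), 7 of them in all 3 pairs (12.5% of all probe sets). The 1 member with an unadjusted p under 0.05 in limma, Fbn2, lay higher, by 0.32 (1.81% of all probe sets). Of 11 fibroblast markers 9 lay lower (median -0.07), 5 of them in all 3 pairs. The 2 others, among them Tcf21 (0.13), were higher in all 3 pairs with no overlap between the groups (3.24% of all probe sets). Lumican (Lum), a proteoglycan that organises collagen fibrils, gave 16.11, 16.46 and 16.25 with MIF and 15.81, 16.18 and 16.12 with both (-0.24 ± 0.13). Efemp1, which encodes the matrix protein fibulin-3, gave 12.65, 10.42 and 11.33 with MIF and 12.02, 10.27 and 10.66 with both. Each pair was lower (-0.64, -0.15 and -0.67), the difference was -0.48 ± 0.15, and the spread between replicate numbers was larger than the difference.

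TGF-beta ligands and response genes lay lower in 15 of 24 members (median -0.07). Tgfbi, a secreted matrix protein induced by TGF-beta, differed by -0.31 ± 0.16, lower in each pair, most in pair 1 (-0.62). Bambi, of the same list, differed the other way, by 0.21. The list's median was -0.01 without replicate 3 and -0.13 without replicate 2. Matrix proteases and their inhibitors lay lower in 18 of 25 members (median -0.08), among them Plat, the tissue plasminogen activator (-0.22 ± 0.12), and the membrane collagenase Mmp14 (-0.22 ± 0.12). Without replicate 3 the median of the proteases was -0.01.

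Contractile genes had a median of 0.01, with 12 of 24 higher. Acta2, smooth muscle alpha-actin, gave 16.76, 16.53 and 16.36 with MIF and 16.97, 16.53 and 16.42 with both, a difference of 0.09 ± 0.12. Cnn1, which encodes the actin-binding protein calponin, gave 9.04, 9.10 and 8.92 with MIF and 9.91, 9.35 and 9.36 with both. The co-treated arrays all lay above the MIF arrays in Cnn1 (0.52 ± 0.21), and the tropomyosin Tpm2 differed by 0.31 ± 0.16.

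**Figure D3:**
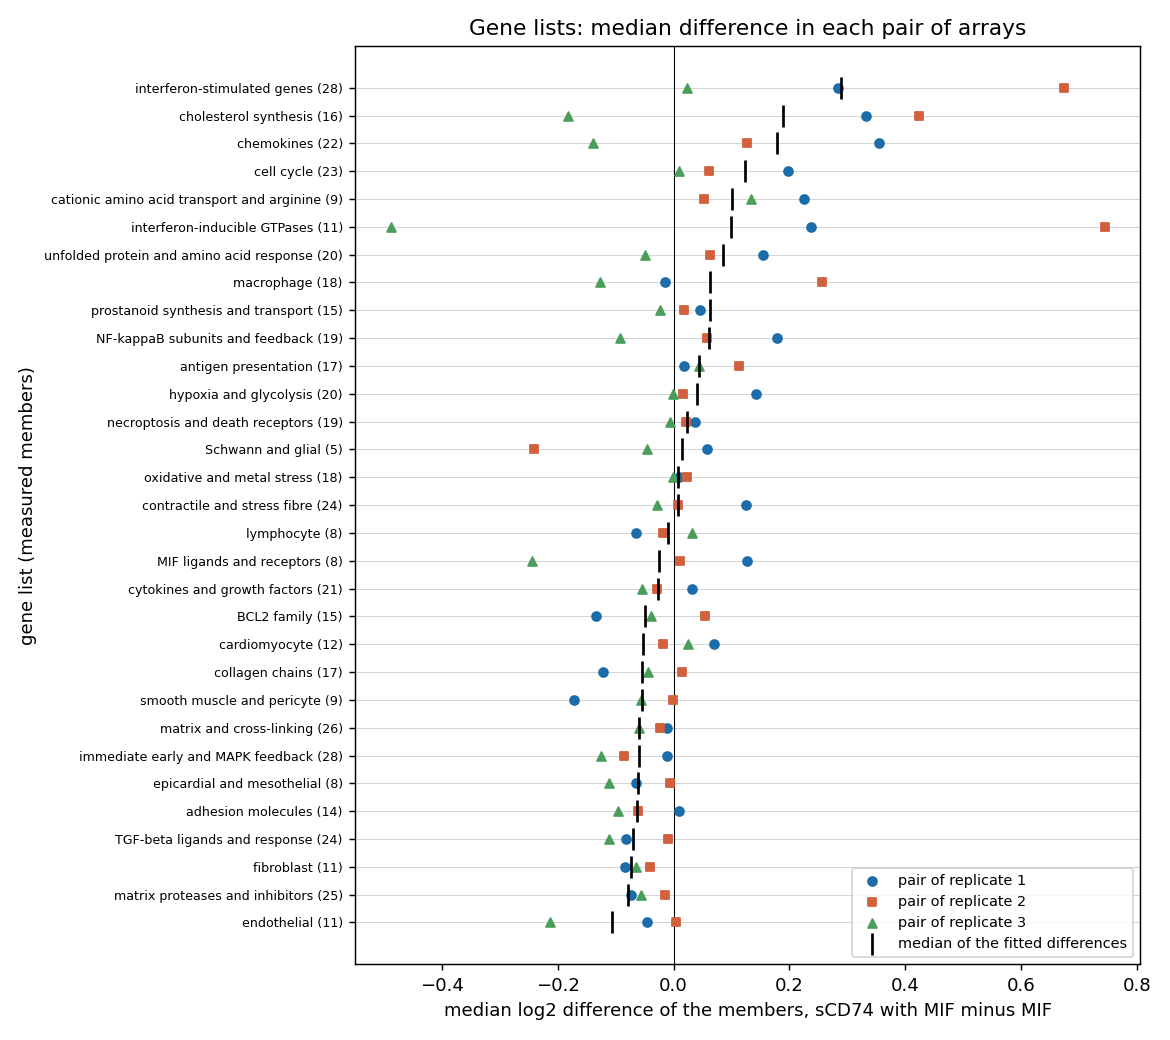
Median log2 difference (sCD74 with MIF minus MIF, horizontal axis) over the measured members of each of 31 gene lists, shown for each pair of arrays (points) and for the fitted differences (black bars). The interferon-stimulated genes lie at 0.28, 0.67 and 0.02 in pairs 1, 2 and 3, and the GTPases run from -0.49 in pair 3 to 0.74 in pair 2.

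Cholesterol synthesis genes were above MIF alone in 15 of 16 members (median 0.19), with 0 at an unadjusted p under 0.05. The list was higher in pair 1 (0.33) and in pair 2 (0.42) and lower in pair 3 (-0.18), where 3 of the 16 lay higher. Nsdhl, a sterol dehydrogenase of the pathway, gave 13.50, 12.75 and 13.15 with MIF and 13.98, 13.30 and 13.23 with both (0.37 ± 0.17). Cyp51, the sterol demethylase, differed by 0.34 ± 0.18, with 0.76, 0.47 and -0.20 in the pairs. Without the MIF array of replicate 2, which had the lowest mean of the list among the MIF arrays, the median was 0.01.

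A transporter of amino acids was higher in each pair. Slc7a3, a carrier for arginine and lysine, gave 8.60, 7.13 and 7.58 with MIF and 9.24, 8.11 and 8.18 with both. The pairs differed by 0.64, 0.97 and 0.60, and the difference was 0.74 ± 0.20 (unadjusted p 0.00304, adjusted 0.998 in limma). Its level lay below background on the MIF array of replicate 2, so the 0.97 is no measured size, and near background on that of replicate 3. Of the 9 measured genes of cationic amino acid transport and arginine use 6 lay higher (median 0.10).

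The unfolded protein and amino acid response lay higher in 16 of 20 members (median 0.08), in pair 3 in 7 of 20 (median -0.05). The median was 0.02 without the co-treated array of replicate 1 or the MIF array of replicate 2, and 0.17 without replicate 3. Phgdh, the first enzyme of serine synthesis, differed by 0.50 ± 0.20. Its level was 10.16, 9.61 and 9.65 with MIF and 10.71, 10.07 and 10.16 with both, and the pairs agreed closely (0.55, 0.45 and 0.51). Atf4, the transcription factor of this response, differed by 0.25 ± 0.14.

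Cell cycle genes lay higher in 21 of 23 members, by a median of 0.12. Ccnb2, a cyclin of mitosis, gave 12.24, 12.45 and 12.56 with MIF and 12.49, 12.79 and 12.74 with both (0.26 ± 0.12), higher in each pair. The list's median was 0.20 in pair 1, 0.06 in pair 2 and 0.01 in pair 3, and it was 0.05 without replicate 1. Hypoxia and glycolysis genes (13 of 20 higher, median 0.04), oxidative and metal stress genes (9 of 18, 0.01), prostanoid genes (11 of 15, 0.06) and adhesion molecules (5 of 14, -0.06) lay close to MIF alone. Immediate early and MAP kinase feedback genes lay lower in 16 of 28 members (median -0.06), with Egr3, a zinc finger factor of that class, at -0.28 ± 0.13 and lower in each pair.

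Among all genes with a symbol, the 12 named on the higher side were led by Fbxo36 and Il17rc. Il17rc, a subunit of the interleukin-17 receptor, gave 10.95, 11.01 and 11.33 with MIF and 11.58, 11.56 and 11.68 with both. The groups did not overlap, the 3 co-treated arrays lay close to each other, and the difference was 0.51 ± 0.11 (unadjusted p 0.000621, adjusted 0.896 in limma). Fbxo36, an F-box protein, gave 8.18, 8.47 and 8.28 with MIF and 8.66, 9.13 and 8.78 with both (0.54 ± 0.11, unadjusted p 0.000236, adjusted 0.896 in limma).

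The others have unlike functions. Mapk8, the stress kinase JNK1, gave 9.82, 9.40 and 9.39 with MIF and 10.27, 9.77 and 9.99 with both (0.48 ± 0.13). The nuclear import receptor Ipo4 differed by 0.49 ± 0.12, the mitochondrial selenoprotein Selenoo by 0.45 ± 0.11 and the membrane protein Gpr137 by 0.55 ± 0.15, each with no overlap between the groups. Slc7a3, Xaf1, Clec4e and Clec2d, already described, completed the 12 together with Mdm1 and Prss16, whose MIF means lay below background. Heatr3, picked after its values were seen for its high level, gave 12.33, 12.42 and 12.43 with MIF and 12.70, 12.74 and 12.87 with both (0.38 ± 0.11).

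On the lower side, 7 of the 12 named genes (Cnga1, Kcnk7, Tas1r2, Podxl, Arsg, Slc66a2 and Proc) had a co-treated mean below background. Of the other 5, Ccdc148, Skint11, Cfap44 and Crym lay under 9 in every array, and Efemp1 was described with the matrix genes. Cnga1, a channel subunit of photoreceptors, gave 8.21, 7.75 and 7.55 with MIF and 7.48, 7.32 and 7.00 with both. Crym, which binds thyroid hormone in the cell, gave 8.83, 8.52 and 8.78 with MIF and 8.33, 8.10 and 8.51 with both (-0.39 ± 0.12). Atp7a, the copper transporter that loads lysyl oxidase, was picked after its values were seen as a well-expressed example. It gave 12.95, 12.37 and 12.59 with MIF and 12.54, 11.98 and 12.32 with both, lower in each pair by a like amount (-0.36 ± 0.11), with some overlap between the groups.

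Markers of other cell types showed no common direction. Endothelial markers lay lower in 7 of 11 members (median -0.11), with Tie1, an endothelial receptor kinase, at -0.32 ± 0.12 and lower in each pair, and Vwf at 0.25 ± 0.15. The pair medians were -0.05, 0.005 and -0.21. The list's median was -0.00467 without replicate 3 and 0.00552 without the co-treated array of replicate 3. Their mean level differed far more between replicate numbers (11.20, 9.66 and 10.32 with MIF) than between the treatments of a number (11.17, 9.72 and 10.08 with both). Cardiomyocyte markers lay higher in 5 of 12, smooth muscle and pericyte markers in 4 of 9 and epicardial markers in 3 of 8. Lymphocyte markers lay below background in both groups in 7 of 8 members and Schwann and glial markers in 3 of 5.

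The largest difference of all belonged to a probe set without a gene symbol in the table used here, TC1700001227.mm.2. It gave 11.87, 10.74 and 11.63 with MIF and 5.32, 8.97 and 5.94 with both. Carrier arrays lay at 6.53, 6.70 and 6.74, and sCD74 arrays at 5.63, 5.56 and 9.94, so that the 3 MIF arrays were high, single arrays with sCD74 were in between and the others were below background. The fitted value was -4.67 ± 1.00 (unadjusted p 0.000554, adjusted 0.896 in limma), and its size is not a measured fold since the co-treated mean lies below background.

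Adding sCD74 without MIF is set beside these values. limma called 0 of 22206 probe sets (0%) for sCD74 against carrier, with 335 higher (1.51%) and 586 lower (2.64%) at an unadjusted p under 0.05. The count lower was 382 without carrier replicate 1. Over all probe sets, the differences with and without MIF, which share no arrays, correlated with r = 0.0667 (Spearman's rho 0.0592), and with r = 0.0983 over the 9137 probe sets with a mean above 9. Without sCD74 replicate 3 the first r was 0.145. The test of the difference between both differences called 0 probe sets, with a smallest adjusted p of 1.00 and 831 (3.74%) at an unadjusted p under 0.05. Among the named genes with the smallest p for it, Glipr1 differed by -0.58 ± 0.13 without MIF and by 0.14 ± 0.13 with it.

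The interferon-stimulated genes lay higher after sCD74 in both settings. Without MIF 25 of 28 lay above carrier (49.9% of all probe sets), 9 at an unadjusted p under 0.05 (1.51% of all probe sets higher), and the median was 0.26, beside 0.29 with MIF. The pairs differed here too, with -0.20, 0.52 and 0.39 in replicates 1, 2 and 3. Isg15 gave 7.28, 7.66 and 8.04 with carrier and 6.94, 8.88 and 8.84 with sCD74, so that replicate 1 went the other way, with both values below background. The count of 9 was 5 without sCD74 replicate 3, 12 without carrier replicate 1 and 3 without carrier replicate 3, with medians of 0.37, 0.42 and 0.19. For the 28 members, the median difference between the difference with MIF and that without was 0.01, and 2 of them had an unadjusted p under 0.05 for it (3.74% of all probe sets). That median was -0.20 without carrier replicate 1. The order of the group medians against carrier was 0.18 for MIF, 0.26 for sCD74 and 0.47 for both, from contrasts that share the carrier arrays.

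The GTPases had a median of 0.42 without MIF, or 0.24 without carrier replicate 3, against 0.10 with it. Without MIF the medians were -0.17, 0.81 and 0.45 in replicates 1, 2 and 3, so that replicate 1 went the other way. The list's median difference of differences was -0.20. It was -0.45 without carrier replicate 1, -0.23 without sCD74 replicate 3 and -0.04 without carrier replicate 3. Gbp4 differed by 0.73 ± 0.32 from carrier with sCD74 alone and by 0.02 ± 0.32 when sCD74 was added to MIF. The difference of the differences was -0.71 ± 0.45 (unadjusted p 0.14 in limma), which did not pass. With carrier replicate 1, carrier replicate 3 or sCD74 replicate 3 left out, it ran from -1.02 to -0.49. The Gbp4 difference without MIF then ran from 0.51 to 1.04. Slc7a3 gave 7.66, 7.39 and 6.61 with carrier, a mean below background, and 8.49, 7.80 and 7.59 with sCD74. Phgdh differed by 0.56 ± 0.20 without MIF, a value that was 0.22 without carrier replicate 1, beside 0.50 ± 0.20 with MIF.

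Macrophage markers lay lower with sCD74 than with carrier in replicates 1 and 3, with median differences of -0.50, 0.02 and -0.36 in replicates 1, 2 and 3. Without MIF 4 of 18 lay above carrier, with a median of -0.24 and 6 at an unadjusted p under 0.05 on the lower side (2.64% of all probe sets). That count was 2 without sCD74 replicate 3, 2 without carrier replicate 1 and 3 without carrier replicate 3. Where sCD74 was added to MIF, 14 lay above the MIF arrays, which themselves lay below carrier by a median of -0.19, and co-treated arrays against carrier had a median of -0.12. Aif1, a calcium-binding protein of macrophages, gave 10.99, 12.66 and 12.59 with carrier and 10.12, 12.29 and 11.77 with sCD74 (-0.69 ± 0.15). With MIF it gave 10.68, 12.27 and 12.53, and with both 10.44, 12.51 and 12.56. The median difference of differences over the list was 0.32, and 4 of 18 had an unadjusted p under 0.05 for it (3.74% of all probe sets), of which 0 passed after adjustment. Without sCD74 replicate 3 the count was 1, and without carrier replicate 1 or carrier replicate 3 it was 2.

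Collagen chains are the next list. Without MIF 13 of 17 were above carrier with a median of 0.13 (0.08 without carrier replicate 1), and with MIF 2 of 17 were above MIF alone with a median of -0.05. The median difference of differences was -0.17, with 0 members at an unadjusted p under 0.05, and 1 without sCD74 replicate 3 or carrier replicate 3. Col1a1 differed by 0.25 ± 0.12 without MIF (0.15 without carrier replicate 1) and by -0.01 ± 0.12 with it, and the test between them gave -0.26 ± 0.16 (unadjusted p 0.14 in limma). Fibroblast markers had medians of 0.12 without MIF (0.01 without carrier replicate 1) and -0.07 with it.

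**Figure D4:**
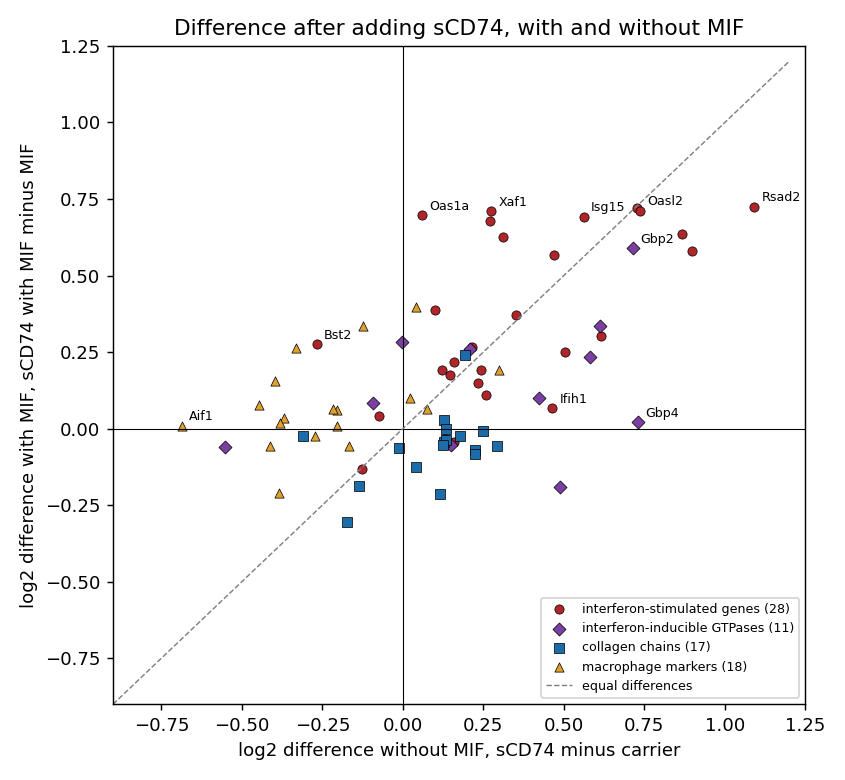
Log2 difference after adding sCD74 to MIF (vertical axis) against the log2 difference after adding sCD74 to carrier (horizontal axis) for the members of 4 gene lists, with a dashed line where both are equal. Interferon-stimulated genes lie mostly to the upper right, collagen chains to the right and near or below 0, and macrophage markers mostly to the left and near or above 0.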

How the data were processed

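The deposited log2 values of 12 arrays were used as the authors deposited them. Per the submitters' processing notes, RMA, Transcriptome Analysis Console and Affymetrix Expression Console were used, with no version named. A genome build for the array is not given in the sources. The values run to 18.39, so a step beyond plain RMA may have rescaled them. Scanner files were not used here.

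Of 28846 probe sets, 6640 controls were left out. Of the other 22206, 19572 had 1 gene symbol, 0 had several and 2634 had none, and those with a symbol were matched by Entrez ID to RefSeq genes of GRCm38.p6. limma 3.58.1 in R 4.3.3 (lmFit, eBayes) fitted 4 group means and the replicate number as a block over all 12 arrays. Tests were two-sided with Benjamini-Hochberg adjustment over all 22206 probe sets at 0.05, and the code was tested on simulated data. Errors are standard errors of that fit.

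Sample titles give the arrays of a number a shared code. Deviations from the group means of same-numbered arrays correlated with r from 0.0816 to 0.634 (above 0.1 in 16 of 18 pairs), and each of the 12 arrays was closest to an array of its own number.

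Named genes are the 12 with the smallest p in each direction among symbols whose 3 pair differences share the sign, with the higher group above the negative control median, passing over predicted genes and receptor and small RNA families. To them come the 2 members with the smallest p of each of 31 lists, the genes fixed as MIF, necroptosis and myofibroblast genes, and the 3 smallest p in each direction of the difference of differences. Further list members were picked after their values were seen. The arrays, lists and genes were chosen with earlier results of these data known. Where a gene had several probe sets, the one with the highest mean stood for it in the lists. Promoter sequences came from a RefSeq table that does not cover every gene. Alternatives were no replicate block, the 6 arrays only, a trended robust fit, median centring, quantile normalization once more, 1 probe set per gene, dim probe sets left out, and each array or replicate number left out.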

Additional observations from a re-analysis of the deposited data

Results flagged for a closer look

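In 12 of the 97 named genes, the 3 pair differences after adding sCD74 lay on one side of 0 with MIF and on the other side without MIF. The same count was not made over all probe sets. Many named genes were picked because their 3 pair differences with MIF share a sign, which is part of this rule. The values below are the log2 difference with MIF minus that without it, from the fit over 12 arrays, and limma passed none of them after adjustment (smallest adjusted p over all probe sets 1.00).

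The value was positive, higher with MIF and lower without it, in 8 genes. It was 0.90 for the F-box gene Fbxo36 (without MIF -0.35 ± 0.11, with MIF 0.54 ± 0.11), 0.77 for Gpr137, 0.74 for the chemokine Cxcl13 and 0.66 for Vwf, which encodes von Willebrand factor. It was 0.59 for Galt, an enzyme of galactose metabolism, 0.44 for the apoptosis inhibitor Bcl2a1a and 0.41 for the cyclin Ccnb2. For Ccl19, below background in all groups, 0.60 is a fitted value and no measured size. Galt gave 8.41, 8.61 and 8.65 with carrier and 8.10, 8.38 and 8.33 with sCD74, against 8.10, 8.32 and 8.43 with MIF and 8.42, 8.75 and 8.58 with both.

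The value was negative in 4 genes. It was -0.64 for the cytokine Il5, and -0.62 for Apold1, an endothelial early response gene. For the lysosomal sulfatase Arsg and for Slc66a2, whose co-treated means lay below background, -0.68 and -0.48 are fitted values and no measured sizes. Il5 gave 8.05, 7.97 and 7.86 with carrier, 8.23, 8.48 and 8.12 with sCD74, 8.34, 8.50 and 8.16 with MIF and 8.02, 8.05 and 7.96 with both. These levels are near background: the negative control median was 7.70 on carrier replicate 3 and 7.90 on sCD74 replicate 3. Several of these genes were picked for their difference of differences, so their number is a description.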

How the results depend on the processing

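No probe set was called in any of the 16 alternatives, and 84 of 97 named genes kept their direction in all of them. Most named genes were picked for a small p or for 3 pair differences of the same sign. A gene with 3 such differences keeps its direction when a replicate number is left out, so the count of 84 is no test of these genes. Without the replicate block, probe sets at an unadjusted p under 0.05 numbered 191 higher and 340 lower (403 and 571 with the block), 407 for the difference of differences (831), and 2 interferon-stimulated genes (9). With dim probe sets left out, which tests fewer probe sets, 231 were lower and 450 stood for the difference of differences, and medians were 0.051 for necroptosis genes and 0.10 for lymphocyte markers. With arrays or replicate numbers left out, the counts ran from 315 to 705 higher and 393 to 1030 lower, and interferon-stimulated genes from 3 to 13. List medians ran from -0.0481 to 0.0812 for cytokines, -0.0217 to 0.11 for antigen presentation, -0.0170 to 0.0647 for necroptosis, -0.13 to -0.011 for TGF-beta, -0.0755 to -0.0228 for matrix, -0.0817 to -0.00515 for proteases, -0.0201 to 0.0295 for oxidative stress, -0.0160 to 0.0749 for prostanoids, -0.0649 to 0.0572 for cardiomyocyte, -0.13 to -0.0312 for epicardial, -0.0814 to 0.0832 for lymphocyte and -0.10 to -0.0112 for fibroblast markers. Directions of genes turned with arrays left out in Ackr3 (-0.18 to 0.26), Birc3 (-0.13 to 0.12), Cd44 (-0.18 to 0.15), Cxcr2 (-0.22 to 0.0706), Ddt (-0.18 to 0.12), Gfap (-0.67 to 0.0467), Il1b (-0.87 to 0.13), Klrb1c (-0.0335 to 0.54), Mif (-0.23 to 0.29), Mlkl (-0.0171 to 0.19), Ripk3 (-0.0820 to 0.0905), S100b (-0.0713 to 0.26) and Tnip1 (-0.10 to 0.48). Ripk3 turned to -0.0211 with quantile normalization. With carrier replicate 1, carrier replicate 3 or sCD74 replicate 3 left out, sCD74 against carrier had 382 to 618 probe sets lower, and Clec4e ran from -0.11 to 0.33. With the same arrays left out, the difference of differences ran from -0.19 to 0.23 for Isg15, from -0.24 to 0.29 for Phgdh and from 0.00146 to 0.15 for Slc7a3 (fitted values, its carrier mean being below background, against -0.00245 with all arrays), so the sign turned in these 3 genes. These settings and those for the counts of interferon-stimulated genes were chosen after seeing the data. The causes were not tested. With 3 arrays a group and a median standard error of 0.14, differences well above that error could be missed, and genes below background have no measured size.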
